A study of Mus musculus with 9 samples.

Results

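The glucocorticoid receptor gene Nr3c1 and 6 of its classical target genes, Fkbp5, Tsc22d3, Klf9, Zbtb16, Sgk1 and Tgm2, were followed through RNA-seq libraries of mouse erythroid progenitors. The 7 genes were taken by symbol from 19840 gene names, and all 7 were found. Tsc22d3 had 2 transcript records, of which the record with the higher mean was used, and the other 6 members had 1 record each.

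The receptor waits in the cytoplasm in a complex with HSP90 chaperones, binds hormone there, and moves to the nucleus, where it binds palindromic response elements in DNA and raises or lowers transcription of nearby genes. In erythropoiesis, glucocorticoids are known for sustaining self-renewal of early progenitors, above all under stress. Among the members, Nr3c1 encodes the receptor itself, Fkbp5 encodes FKBP51, an HSP90 co-chaperone that lowers the receptor's affinity for hormone, and Tsc22d3 encodes GILZ, a mediator of anti-inflammatory action. Klf9 encodes a zinc finger transcription factor, Zbtb16 the transcriptional repressor PLZF, Sgk1 a kinase that acts on ion channels and transporters, and Tgm2 transglutaminase 2, an enzyme that cross-links proteins.

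There were 9 libraries, 1 per condition, all from fetal liver of C57BL/6 mouse embryos at embryonic day 13.5 to 14.5. The 3 fresh libraries were BFU-E, the early burst-forming progenitor (among cells positive for Kit and negative for lineage markers, the 10% lowest in CD71), CFU-E, the later colony-forming progenitor (the 20% highest in CD71), and Ter119+ erythroblasts, which lacked Kit. The 6 cultured libraries were BFU-E grown without serum for 4 h, with erythropoietin (2 U/mL), SCF (100 ng/mL) and IGF-1 (40 ng/mL) in the medium, and then for another 4 h with an added agent. BFU-E taken for low CD71 (called the CD71 sort, with 2 libraries) received 100 nM dexamethasone (Dex, a synthetic glucocorticoid) or water. BFU-E taken for low CD24a as well as low CD71 (called the CD71/CD24a sort, with 4 libraries) received Dex with 333 µM DMOG, DMOG alone, Dex alone or water. DMOG is an inhibitor of the 2-oxoglutarate-dependent hydroxylases, among them those that mark HIF alpha subunits for degradation. Within a sort, all arms came from a common pool of sorted cells, so each Dex library has a partner without Dex. The labels do not say how many embryos were pooled. The p-values of the Dex test below measure the spread between these 3 pairs of libraries, 2 of which came from the same sort, joined with a spread shared over all genes. The spread behind the other tests is described where they are given.

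Values are deposited RPKM, read numbers corrected for transcript length and for library depth, divided by 1 scaling factor per library. The recovered depth was 11.8 M to 52.7 M reads (M for mega) per library, lowest in the CD71 cultures and highest in the cultures with DMOG. All 10 erythroid markers checked were at 1 or more scaled RPKM in every library, except Slc4a1 in the Dex with DMOG culture. Markers of other cells were unevenly spread among the fresh libraries: summed neutrophil and mast cell markers were 100 in BFU-E, 4.74 in CFU-E and 198 in Ter119+, against 5.33 to 26.6 in the cultures. Summed macrophage markers were 3.31 in BFU-E, 0.897 in CFU-E and 34.3 in Ter119+, against 0.384 to 1.20 in the cultures. Summed lymphoid markers were 9.36 in BFU-E, mostly Cd79b (8.14), 1.03 in CFU-E and 10.4 in Ter119+, mostly Lck (9.28), against 1.73 to 2.68 in the cultures. Cd3e and Mcpt4 were at 0 in the 5 files that hold zeros and at the exact 1 read as 0 in the 4 CD71/CD24a files, while the T cell gene Cd3g was at up to 0.263 and the mast cell gene Cpa3 at up to 0.885.

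The first question was which members respond to Dex within 4 h. Of the 6 target genes, Fkbp5, Tsc22d3, Tgm2, Zbtb16 and Klf9 rose with Dex in cultured BFU-E, each to 1.93 to 3.20 times the level of its partner culture in the 3 pairs. Nr3c1 itself was 1.09 to 1.27 times as high with Dex and did not pass the test. Sgk1 was too low to be tested. All 7 members were higher with Dex in each of the 3 pairs, as were 19.5% of all genes tested, and in 6 of the 7, all but Nr3c1, the 3 Dex libraries all lay above the 3 others, as in 5.52% of all genes tested. The test was limma on log2(scaled RPKM + 1) with the culture pair as a block, over 9535 genes with a mean of at least 1 scaled RPKM, and a call required a Benjamini-Hochberg adjusted p under 0.05. It called 2.02% of these genes, 1.39% higher and 0.629% lower, against 5 of the 6 tested members, all higher. The members were chosen with earlier results of these data known, so these counts are no independent evidence that the set responds. Without the level filter the limma calls of Fkbp5 and Tgm2 held and those of Tsc22d3, Klf9 and Zbtb16 did not (adjusted p of 0.0510, 0.108 and 0.0832). Without the block's term for the CD71 pair 0 of the 5 held.

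Stretches of DNA before the starts of 3 target genes are shown because Fkbp5 and Klf9 rose together with Dex while the only full receptor palindrome among the members' windows stood at Sgk1. Each is the 250 bases before an annotated start, read 5′ to 3′ on the gene's strand from RefSeq's GRCm38.p6 assembly, which is a later build than the mm9 of the deposited values. The capitals mark the receptor palindrome (AGAACA, any 3 bases, then TGTTCT) and its single arm AGAACA, searched on both strands. The Sgk1 window is chr10:21993640-21993889 on the plus strand and lies before a start other than that of the measured record. The Fkbp5 window is chr17:28486150-28486399 on the minus strand, and the Klf9 window is chr19:23140976-23141225 on the plus strand, each before the start of the measured record.
Sgk1: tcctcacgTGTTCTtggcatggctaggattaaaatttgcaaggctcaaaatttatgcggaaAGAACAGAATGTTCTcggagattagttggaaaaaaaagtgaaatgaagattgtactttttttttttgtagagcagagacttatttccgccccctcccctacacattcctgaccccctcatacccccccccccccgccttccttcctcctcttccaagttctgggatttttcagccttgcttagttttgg
Fkbp5: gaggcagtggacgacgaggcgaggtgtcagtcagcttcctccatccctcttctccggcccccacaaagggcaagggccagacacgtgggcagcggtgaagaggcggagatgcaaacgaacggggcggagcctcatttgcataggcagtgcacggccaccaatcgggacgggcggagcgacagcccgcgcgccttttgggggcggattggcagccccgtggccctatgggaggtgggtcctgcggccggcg
Klf9: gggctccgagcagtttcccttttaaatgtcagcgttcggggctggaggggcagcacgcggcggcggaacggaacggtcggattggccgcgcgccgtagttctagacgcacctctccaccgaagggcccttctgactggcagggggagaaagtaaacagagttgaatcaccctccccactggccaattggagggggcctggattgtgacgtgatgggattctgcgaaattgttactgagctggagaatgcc
In the Sgk1 window the palindrome begins 189 bases before the start. A further single arm, written as its reverse complement TGTTCT, begins 242 bases before it. The Fkbp5 and Klf9 windows held no match to either, which says only that these letters are not in these windows. The promoter table held 32851 windows, and 11 of them belonged to members: 6 to Sgk1, 3 to Tsc22d3, and 1 each to Fkbp5 and Klf9. The full palindrome was in 3 of all windows (0.00913%), and the looser form (GNACA, any 3 bases, then TGTNC), which takes in every full palindrome, was in 156 (0.475%). Both occurred in 1 of the 11 member windows, at the same Sgk1 site. The single arm AGAACA, which also lies within every full palindrome, was in 19.0% of all windows and in 4 of the 11 member windows. Those 4 were windows of Sgk1 and Tsc22d3 alone and do not stand for 4 separate members. These shares were counted over the whole 300-base windows of the table, which reach 50 bases past the start. A match is a description of the sequence and not a measured binding site.

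The gene of the receptor was present in every library and differed little between Dex and its partners. Nr3c1 was at 11.8 with Dex and 10.9 with water in the CD71 sort, and at 13.1 with Dex and 11.7 with water in the CD71/CD24a sort. With DMOG it was at 18.3 with Dex and 14.4 without Dex. The Dex and no-Dex libraries overlapped, since the culture with DMOG alone lay above both Dex cultures that had no DMOG. The mean was 14.4 ± 3.42 with Dex and 12.3 ± 1.85 without (SD, n = 3 each). The fitted log2 difference was 0.20 (SE 0.077, 95% interval 0.012 to 0.39, limma adjusted p = 0.283).

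Fkbp5, the co-chaperone gene, stood highest of the targets in cultured cells on this length-corrected scale. Its level was 71.7 with Dex and 22.4 with water in the CD71 sort, 64.4 with Dex and 22.9 with water in the CD71/CD24a sort, and 64.4 with Dex and 21.6 without Dex when DMOG was present. The 3 Dex libraries lay within 64.4 to 71.7 and the 3 others within 21.6 to 22.9, with no overlap. On the log2 scale the fitted Dex difference was 1.54 (SE 0.071, limma adjusted p = 0.000916), which ranked 3 by p among the 9535 genes and 19 by size among those that were higher. On the unlogged scale the Dex library held 3.20 times its partner in the CD71 pair, 2.81 times in the CD71/CD24a pair and 2.98 times in the pair with DMOG.

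Tsc22d3, the GILZ gene, was at 19.0 with Dex and 7.25 with water in the CD71 sort, and at 18.0 with Dex and 5.83 with water in the CD71/CD24a sort. With DMOG it was at 15.3 with Dex and 6.17 without Dex. All Dex cultures lay above all others, and the lowest Dex value was the one with DMOG. The fitted log2 difference was 1.31 (SE 0.085, limma adjusted p = 0.00166). The second Tsc22d3 record, which shares 902 bases with the first (45.7% of the first and 58.1% of the second), gave 15.6 with Dex and 6.12 with water in the CD71 sort. It gave 15.8 with Dex and 4.90 with water in the CD71/CD24a sort, and 13.8 with Dex and 5.33 without Dex in the presence of DMOG. The authors' handling of reads common to both records was not given in the sources used here, so the 2 records are not independent measurements.

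The transcription factor genes Klf9 and Zbtb16 had lower levels and also rose. Klf9 was at 7.73 with Dex and 3.53 with water in the CD71 sort, at 5.001 with Dex and 2.16 with water in the CD71/CD24a sort, and at 4.46 with Dex and 2.21 without Dex when DMOG was present. Its Dex and no-Dex values did not overlap, and the CD71 sort gave the higher value in both arms. On the log2 scale the fitted Dex difference was 0.88 (SE 0.085, limma adjusted p = 0.00654). Zbtb16 was at 5.89 with Dex and 2.44 with water in the CD71 sort, at 7.54 with Dex and 3.53 with water in the CD71/CD24a sort, and at 7.67 with Dex and 3.68 without Dex when DMOG was present. For this gene the CD71 sort gave the lower value in both arms, and again Dex and no-Dex values did not overlap. The fitted log2 difference was 0.94 (SE 0.079, limma adjusted p = 0.00416). A pseudocount of 1 on values this low understates the change: the unlogged ratios were 2.19, 2.31 and 2.02 for Klf9 and 2.41, 2.14 and 2.08 for Zbtb16, in the CD71 pair, the CD71/CD24a pair and the pair with DMOG.

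Tgm2, the transglutaminase gene, was at 41.6 with Dex and 21.6 with water in the CD71 sort, and at 24.6 with Dex and 10.8 with water in the CD71/CD24a sort. With DMOG it was at 24.8 with Dex and 11.8 without Dex. The lowest Dex value was above the highest value without Dex, although the sorts differed by almost as much as the treatments did. On the log2 scale the fitted Dex difference was 1.01 (SE 0.073, limma adjusted p = 0.00237). Of the bases of the Tgm2 record, 22.6% also occur in transcripts of other genes, Rprd1b and Gm20412, which overlap it on the opposite strand, and the use of strand in counting was not given. Rprd1b was at 31.8 with Dex and 34.9 with water in the CD71 sort and at 25.2 to 26.7 in the 4 CD71/CD24a cultures. In each of the other members, at most 2.43% of the bases lay in exact matches of at least 32 bases to transcripts of other genes.

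Sgk1, the kinase gene, lay under the level filter, at 0.795 with Dex and 0.204 with water in the CD71 sort and at 0.483 with Dex and 0.249 with water in the CD71/CD24a sort. With DMOG it was at 0.424 with Dex and 0.261 without Dex. These rest on 26 and 6 recovered reads in the CD71 pair, 26 and 13 in the CD71/CD24a pair, and 64 and 30 in the pair with DMOG. The ratio of Dex to its partner was 3.89 (exact 95% interval of counting error 1.56 to 11.5) in the CD71 pair. It was 1.94 (0.965 to 4.13) in the CD71/CD24a pair and 1.62 (1.05 to 2.64) in the pair with DMOG. The Dex values lay above all others, but fitted without the level filter the log2 difference of 0.33 did not pass (SE 0.090, limma adjusted p = 0.313).

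**Figure D1:**
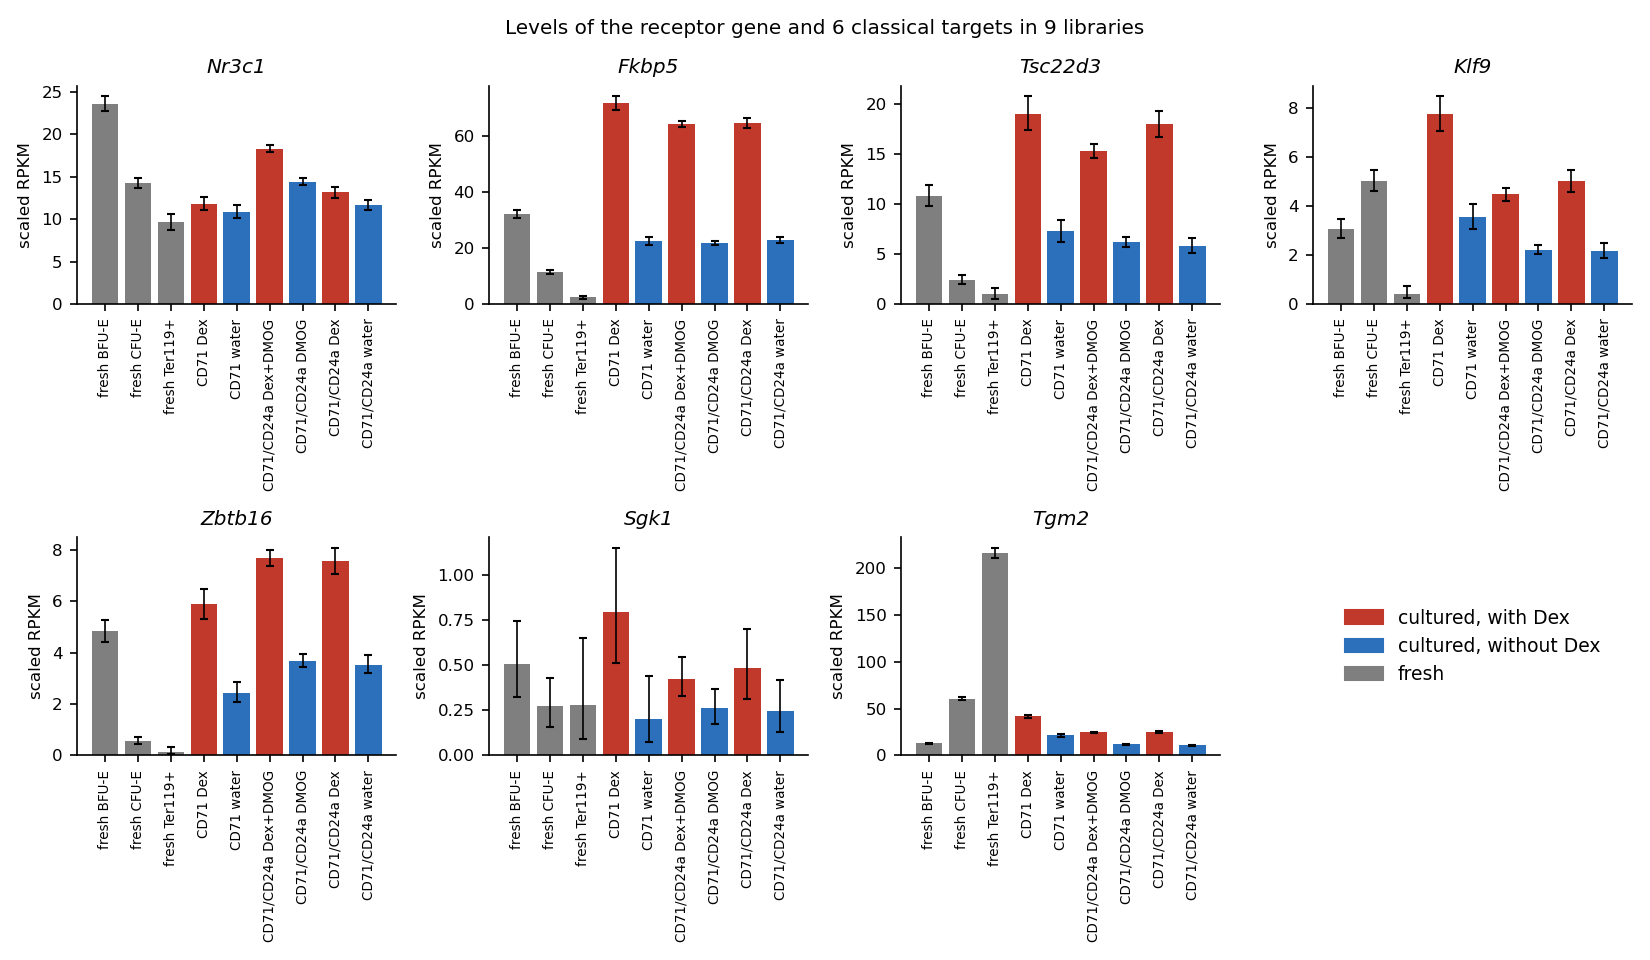
Scaled RPKM (vertical axes, starting at 0) of the 7 members in each of the 9 libraries, with exact 95% intervals of counting error. Red bars are cultures with Dex, blue bars cultures without Dex and grey bars fresh cells; every red bar of a target is above every blue one, and Tgm2 peaks at 216 in fresh Ter119+ cells.

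**Figure D2:**
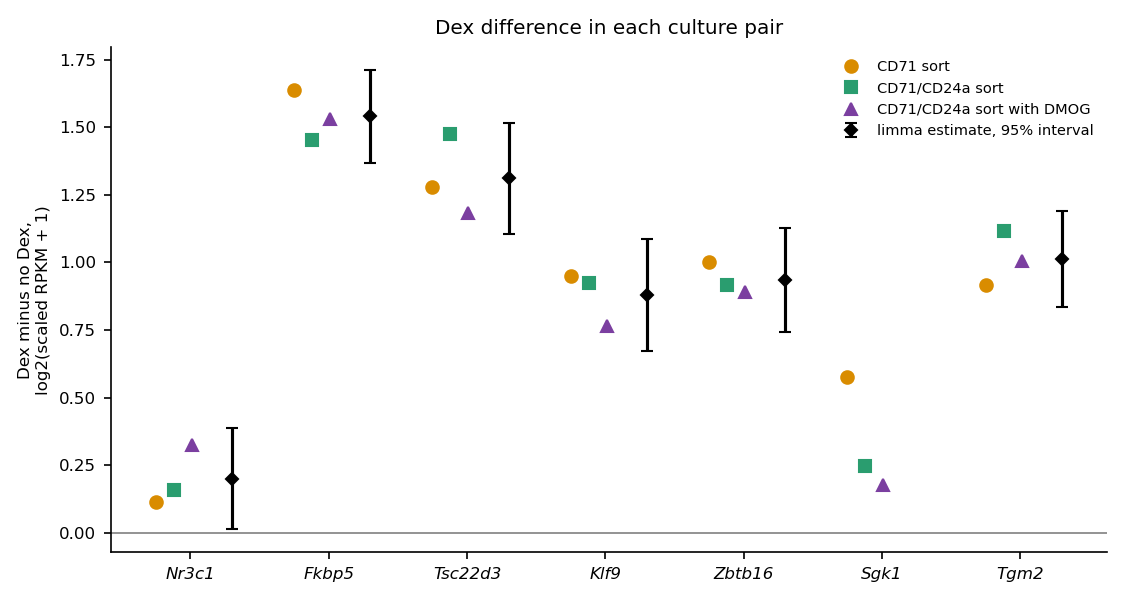
Difference between Dex and its partner culture on the log2(scaled RPKM + 1) scale for each member, by culture pair (coloured points), with the limma estimate and its 95% interval (black; not given for Sgk1, which was not tested). All points lie above 0, and the estimates run from 0.20 for Nr3c1 to 1.54 for Fkbp5.

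**Figure D3:**
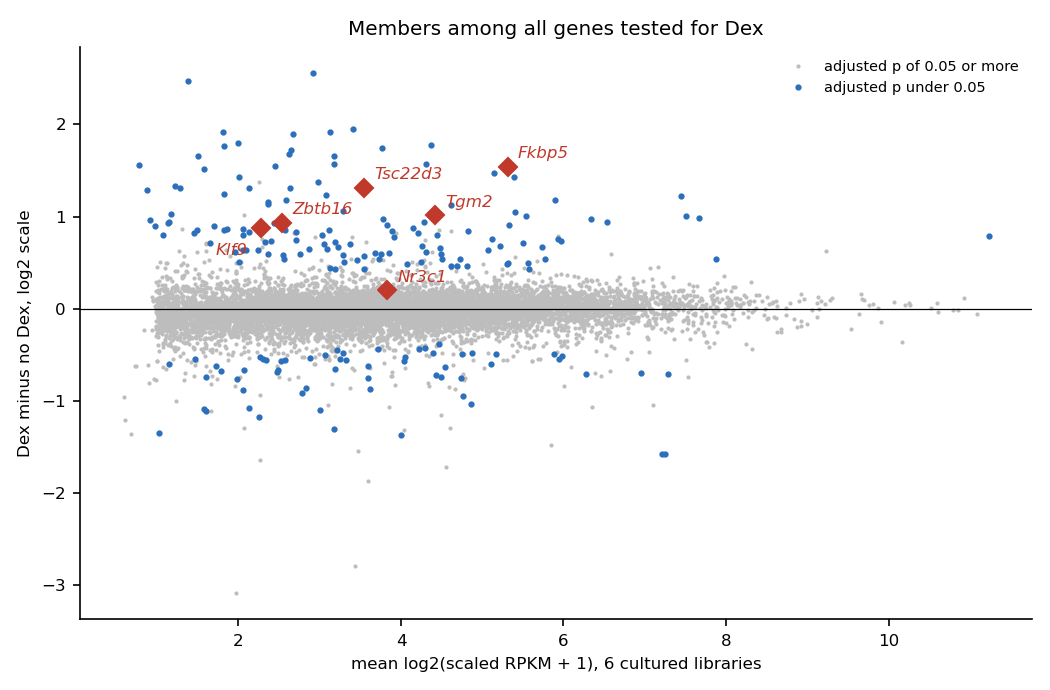
Mean level over the 6 cultured libraries (horizontal axis, log2 scale) against the Dex difference (vertical axis, log2 scale) for all 9535 genes tested, with genes at an adjusted p under 0.05 in blue and the 6 tested members as red diamonds. Fkbp5, Tsc22d3, Tgm2, Zbtb16 and Klf9 lie among the 133 genes called higher, and Nr3c1 lies in the grey band.

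The Dex responses of the sorts were set against each other in an interaction, the Dex difference in the CD71/CD24a sort (2 pairs) minus that in the CD71 sort (1 pair). No member was called, where limma called 575 of 9535 genes (6.03%), and none had an unadjusted p under 0.05, where 24.6% of all genes did. The member estimates ran from -0.14 for Fkbp5 (95% interval -0.40 to 0.11) to 0.14 for Tgm2 (-0.13 to 0.42), with limma adjusted p from 0.477 to 0.869. For each gene, 2 CD71/CD24a pairs of the same sorted cells give 1 residual degree of freedom. To this limma adds 10.5 prior degrees of freedom from the spread of all genes in these same pairs. The test therefore sets the single CD71 pair against a mostly shared spread within the other sort. It holds no measure of the spread between sorted pools. Between the water cultures, the CD71/CD24a sort held 0.501 times the Tgm2 and 0.614 times the Klf9 of the CD71 sort, but 1.44 times the Zbtb16. Their exact 95% intervals of counting error were 0.456 to 0.551, 0.501 to 0.749 and 1.20 to 1.76. Of all genes, 3.96% were at least 2-fold higher and 4.45% at least 2-fold lower in this comparison of 2 single libraries.

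The study also asked whether DMOG acts on BFU-E alone or together with the glucocorticoid. Among the members Nr3c1 had the largest DMOG estimate. It was at 14.4 with DMOG and 11.7 with water, 1.24 times as high (exact 95% counting interval 1.17 to 1.31), and at 18.3 with Dex and DMOG and 13.1 with Dex, a ratio of 1.39 (1.32 to 1.47). Both DMOG cultures were above both of their partners. The DMOG test set the pair of cultures with DMOG against the pair of the same sort without it. Its spread was that of the Dex test, the variation of the Dex differences between culture pairs, joined with the spread shared over all genes. Its p-values and intervals therefore hold no measure of how pairs alike in sort and DMOG state differ in level. The fitted log2 difference of Nr3c1 was 0.37 (SE 0.095, unadjusted p = 0.00755), and its limma adjusted p was 0.933. Without the CD71 pair the same difference passed, with a limma adjusted p of 0.0454, as did 121 genes in place of 2. The libraries with DMOG were also the deepest, with 39.9 M and 52.7 M reads against 18.4 M and 19.0 M in their partners, and the part of depth in this difference was not tested.

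The target genes showed DMOG differences close to 0. The estimates were 0.065 for Tgm2, 0.036 for Zbtb16, -0.040 for Fkbp5, -0.056 for Klf9 and -0.076 for Tsc22d3, with 95% intervals that reached at most 0.33 on either side of 0. The limma adjusted p was 0.999 for each of these 5 genes. No member was called for DMOG and 1, Nr3c1, had an unadjusted p under 0.05, where limma called 2 of 9535 genes (0.021%) and 347 genes had an unadjusted p under 0.05.

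The test of Dex and DMOG together set the Dex difference of the single pair with DMOG against the mean of the CD71 and CD71/CD24a pairs without it, whose difference from each other gave the 1 residual degree of freedom. It called 0 of the 9535 genes, none of them a member, and 275 genes but no member had an unadjusted p under 0.05. The estimates were 0.19 for Nr3c1, -0.19 for Tsc22d3, -0.17 for Klf9, -0.068 for Zbtb16, -0.013 for Fkbp5 and -0.0092 for Tgm2. The 95% interval was -0.43 to 0.41 for Fkbp5 and -0.65 to 0.26 for Tsc22d3, so changes anywhere within these bounds remain compatible with these 3 pairs. In single libraries, Tsc22d3 was at 15.3 with Dex and DMOG and 18.0 with Dex, 0.850 times as high (exact 95% counting interval 0.781 to 0.925). Fkbp5 was at 64.4 in both, a ratio of 0.9996 (0.968 to 1.03).

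Genes that bring hormone to the receptor or serve it were read beside the members. Of 17 genes for receptor loading and ligand access, 12 were tested and 0 were called for Dex, and of 18 coregulator genes 16 were tested and 0 were called. Over all genes limma called 2.02% either way. At an unadjusted p under 0.05 these lists held 0 and 1 genes, where 16.2% of all genes passed. The HSP90 gene Hsp90ab1 was at 1698 with Dex and 1661 with water in the CD71 sort, and at 2206 with Dex and 2040 with water in the CD71/CD24a sort. With DMOG it was at 2237 with Dex and 1963 without Dex. Its Dex difference was 0.11 (limma adjusted p = 0.535). The co-chaperone gene Fkbp4, a relative of Fkbp5 whose product favours the receptor's move to the nucleus, had a difference of 0.15 (limma adjusted p = 0.358). The coactivator gene Ncoa3 had -0.31 (limma adjusted p = 0.135). Among the genes under the filter, the mineralocorticoid receptor gene Nr3c2 was at 0 to 0.137 and Hsd11b1, whose product regenerates active hormone from its inactive form, at 0 to 0.101 in the 9 libraries. Hsd11b2, whose product inactivates hormone, was at 0.025 to 0.585.

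Of 38 other genes described elsewhere as glucocorticoid-induced, 21 were tested, 8 rose and 0 fell, against 1.39% of all genes called higher. Their median log2 difference was 0.15, and that of all genes tested was -0.015. Per1, a clock gene, was at 22.5, 12.2 and 11.2 in the CD71, CD71/CD24a and DMOG-treated cultures with Dex, against 4.67, 3.85 and 4.24 in their partners. Ddit4, an inhibitor of mTORC1 signalling, was at 19.4, 12.2 and 32.8 with Dex, against 2.34, 3.09 and 10.7 in the same partners. Each of the 2 genes was higher in every pair, with log2 differences of 1.57 for Per1 (SE 0.16, limma adjusted p = 0.00729) and 1.95 for Ddit4 (SE 0.20, limma adjusted p = 0.00843). The other 6 that rose were Hif3a, a HIF family member (1.43), the metallothionein gene Mt2 (1.23), Zfp36l2, an RNA-decay factor (1.18), the glutamine synthetase gene Glul (0.94), Txnip, a thioredoxin inhibitor (0.88), and the transcriptional coregulator gene Cited2 (0.53). For these 6 the limma adjusted p ran from 0.00100 to 0.0174, and Cited2 lost its call in 3 of 10 alternatives. Without the block's term for the CD71 pair all 8 lost their calls (limma adjusted p from 0.158 to 0.99997). With no filter on low values Per1, Ddit4, Mt2, Txnip and Cited2 lost theirs. Among the 13 that were not called, Dusp1, a MAP kinase phosphatase, had -0.16 (limma adjusted p = 0.516), the mRNA-decay factor Zfp36 had 0.054 (0.827) and Gadd45b had -0.76 (0.0709). The list was drawn up with results of these libraries known, so its count is no independent evidence of a direction.

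Of 20 genes described as glucocorticoid-repressed, 4 were tested, 2 were called lower and 0 higher, against 0.629% of all genes called lower. The other 16, most of them cytokine and inflammatory genes, lay under the filter. Among those tested but not called, Icam1 had -0.37 (limma adjusted p = 0.231) and Egr1 had 0.72 (limma adjusted p = 0.176). Egr1 was higher with Dex in each of the 3 pairs, against the direction of the list. This list too was drawn up with results of these libraries known, so its count is no independent evidence of a direction. Il4ra, a cytokine receptor subunit, was at 18.9, 19.9 and 15.0 in the CD71, CD71/CD24a and DMOG-treated cultures with Dex, against 26.5, 29.2 and 28.8 in their partners. Its log2 difference was -0.63 (SE 0.10, limma adjusted p = 0.0362). Jun, a subunit of AP-1, was at 1.16, 0.591 and 0.698 with Dex, against 2.04, 1.69 and 1.49 in the same partners. Its log2 difference was -0.60 (SE 0.10, limma adjusted p = 0.0475), and it lost its call in 7 of 10 alternatives, and Il4ra in 3 of 10. Of the 12 marker genes of neutrophils, lymphoid cells, megakaryocytes and hepatocytes that were tested for Dex, limma called 0, and 2 had an unadjusted p under 0.05.

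**Figure D4:**
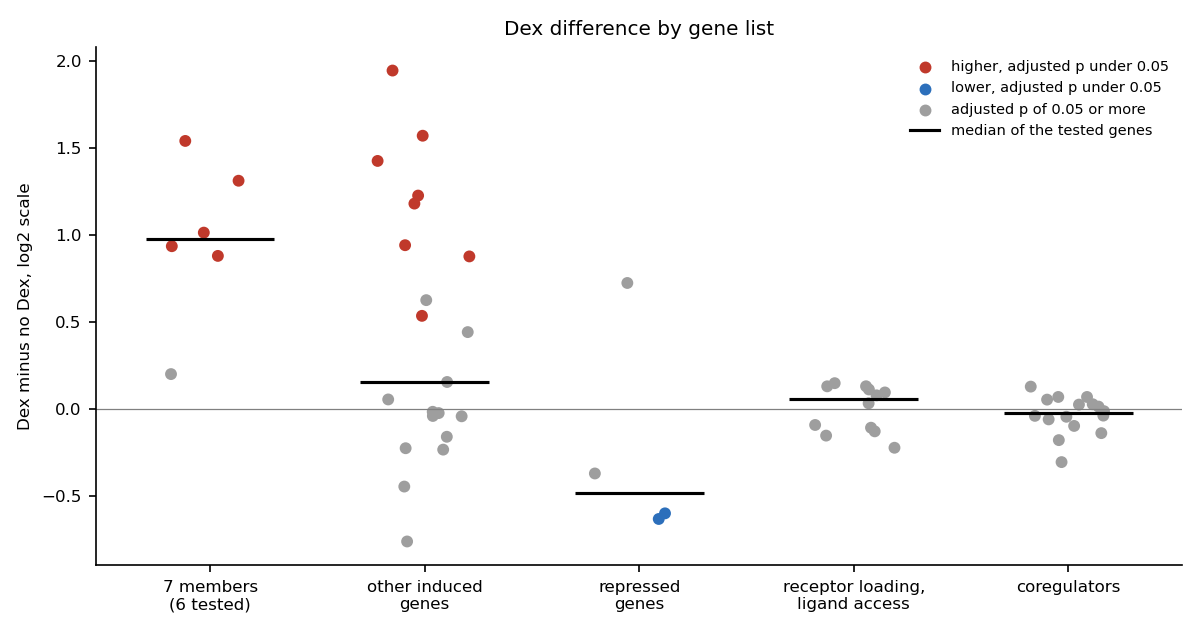
Dex difference on the log2(scaled RPKM + 1) scale (vertical axis) of every tested gene of the 5 lists, with called genes in red (higher) or blue (lower), the rest in grey and the list median as a bar. Called genes lie among the members, the other induced genes and the repressed genes, and 0 of the 28 tested loading and coregulator genes are coloured.

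Across the fresh stages the members did not keep together. Nr3c1, Fkbp5, Tsc22d3 and Zbtb16 were lower at each step of maturation, Klf9 was highest in CFU-E, and Tgm2 was higher at each step. Fresh stages have 1 library each, so no test was made, and intervals below cover counting error only. In these bulk samples fewer cells of a type and less RNA per cell cannot be told apart. The marker sums given above differ between the same 3 libraries, and their part in these differences was not tested.

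The receptor gene Nr3c1 was at 23.6 in BFU-E, 14.2 in CFU-E and 9.66 in Ter119+. It was 0.603 times as high in CFU-E as in BFU-E (exact 95% interval 0.571 to 0.637) and 0.678 times as high in Ter119+ as in CFU-E (0.611 to 0.751). The Ter119+ library was the exception in scaling, with a factor of 0.419 against 1.02 to 1.18 elsewhere, and globins made up 39.1% of its summed RPKM. Without scaling the last ratio was 0.262, and the order of the stages was the same. Each ratio below that sets Ter119+ against another library is likewise lower without scaling.

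Fkbp5 was at 32.0 in BFU-E, 11.5 in CFU-E and 2.33 in Ter119+, so that Ter119+ cells held 0.0727 times the BFU-E level (exact 95% interval 0.0551 to 0.0937). Tsc22d3 was at 10.8 in BFU-E, 2.39 in CFU-E and 0.967 in Ter119+, where it rests on 14 reads. Zbtb16 was at 4.83 in BFU-E, 0.566 in CFU-E and 0.133 in Ter119+, where it rests on 5 reads. Its CFU-E level was 0.117 times that of BFU-E (exact 95% interval 0.0900 to 0.149), the lowest such ratio among the members. The CFU-E levels of these 3 targets, relative to BFU-E, were under that of the receptor gene, with ratios of 0.359 for Fkbp5, 0.222 for Tsc22d3 and 0.117 for Zbtb16, whose intervals lie wholly under that of Nr3c1.

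Klf9 was at 3.07 in BFU-E, 5.02 in CFU-E and 0.417 in Ter119+. The CFU-E level was 1.64 times that of BFU-E (exact 95% interval 1.41 to 1.90), and the Ter119+ level was 0.0831 times that of CFU-E (0.0464 to 0.144). Sgk1 was at 0.508 in BFU-E, 0.272 in CFU-E and 0.282 in Ter119+, on 24, 17 and 5 reads, and its intervals overlapped between all 3 stages. Tgm2 was at 12.8 in BFU-E, 60.7 in CFU-E and 216 in Ter119+. It was 4.74 times as high in CFU-E as in BFU-E (exact 95% interval 4.41 to 5.09) and 3.56 times as high in Ter119+ as in CFU-E (3.43 to 3.69), or 1.37 times without scaling. The overlapping gene Rprd1b was at 29.8 in BFU-E, 37.5 in CFU-E and 51.9 in Ter119+.

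Between CFU-E and BFU-E, 1 of the 6 members at 1 or more scaled RPKM in at least 1 of the 2 libraries was 2-fold higher in CFU-E and 3 were 2-fold lower, against 4.88% and 16.4% of all genes. Between Ter119+ and CFU-E, 1 of 5 was 2-fold higher in Ter119+ and 3 were 2-fold lower, against 25% and 33.2% of all genes. Against backgrounds this broad, the counts between Ter119+ and CFU-E are not a result about the members.

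**Figure D5:**
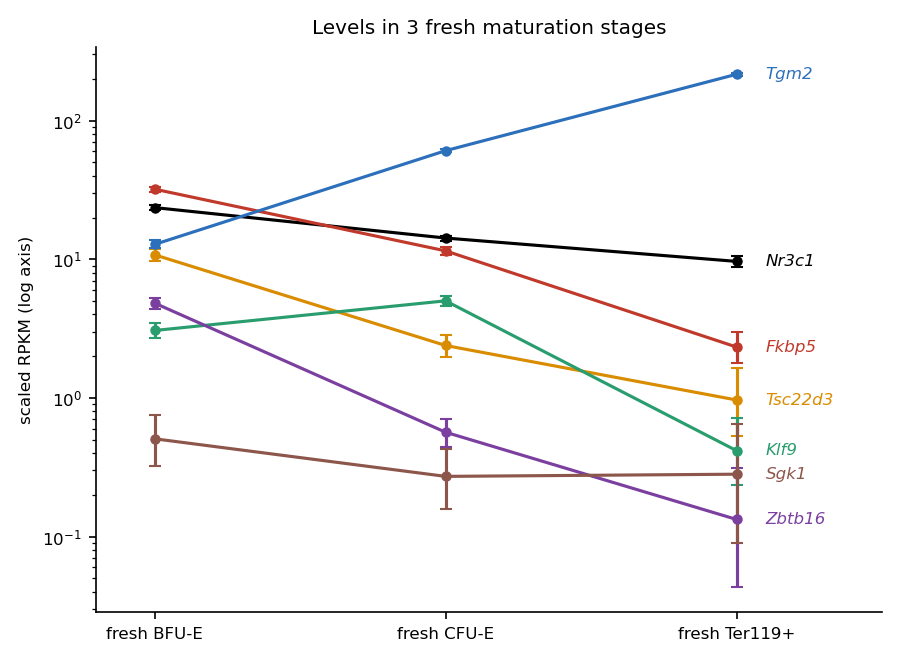
Scaled RPKM (vertical log axis) of each member in fresh BFU-E, CFU-E and Ter119+ cells, 1 library each, with exact 95% intervals of counting error. In Ter119+ cells Tgm2 is at 216, Fkbp5 at 2.33 and Zbtb16 at 0.133, and Klf9 has its highest fresh level, 5.02, in CFU-E.

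Cultured BFU-E were also set against fresh BFU-E, again with 1 library each. The water cultures held less Nr3c1 than fresh BFU-E, 10.9 in the CD71 sort and 11.7 in the CD71/CD24a sort against 23.6. The ratios were 0.461 (exact 95% interval of counting error 0.426 to 0.497) and 0.494 (0.465 to 0.526). Of all genes 13.9% and 17.8% were at least 2-fold lower in these 2 comparisons, which share the fresh library. Fkbp5 was at 22.4 and 22.9 in the water cultures against 32.0 in fresh BFU-E, and at 71.7 and 64.4 in the Dex cultures. The Dex cultures thus stood 2.24 and 2.01 times above fresh BFU-E, and the water cultures at 0.698 and 0.715 of it. Tsc22d3 and Zbtb16 showed the same order, water culture under fresh cells and Dex culture above them, in both sorts. Zbtb16 was at 5.89 and 7.54 in the Dex cultures and 2.44 and 3.53 in the water cultures, against 4.83 in fresh BFU-E. Klf9 and Tgm2 in water cultures lay above fresh BFU-E in the CD71 sort (ratios of 1.15 and 1.68) and under it in the CD71/CD24a sort (0.706 and 0.844). The fresh BFU-E were sorted by CD71 alone, and the medium, the time and the sort differ together between fresh and CD71/CD24a cultured cells.

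Ordered by level over all 9 libraries, Fkbp5, Tsc22d3 and Zbtb16 shared a ranking in its main lines: the 3 Dex cultures first, fresh BFU-E next, then the 3 cultures without Dex, CFU-E and Ter119+. Neighbours in the Fkbp5 order whose exact 95% intervals overlapped were Dex with and without DMOG in the CD71/CD24a sort, and the 3 cultures without Dex. For Zbtb16 the overlapping neighbours were the 2 Dex cultures of the CD71/CD24a sort and their 2 partners. The Nr3c1 order began with fresh BFU-E, the Dex with DMOG culture and DMOG alone and ended with Ter119+, and 6 of its 8 neighbour steps overlapped. For Klf9 4 of 8 steps overlapped, for Tsc22d3 3, for Tgm2 3 and for Sgk1 all 8.

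Over the 9 libraries, whose spread comes from stage, culture and Dex together, Pearson's r of log2(scaled RPKM + 1) was 0.98 between Fkbp5 and Tsc22d3, 0.96 between Tsc22d3 and Zbtb16 and 0.95 between Fkbp5 and Zbtb16. Tgm2 ran the other way, at -0.62 with Fkbp5 and -0.70 with Zbtb16. Among 7737 genes searched, those most like Fkbp5 were Clstn1 (r = 0.99), Pex11a (0.98) and Rapgef2 (0.98). Those most like Tsc22d3 were Slc44a2 (0.99), Bcl2 (0.98) and Tent5a (0.98), and those most like Zbtb16 were Bcl2 (0.99), P3h2 (0.98) and Adgra2 (0.98). Klf9 was most like Pacs1 (0.95), Cela1 (0.94) and Lonp1 (0.94), Tgm2 most like Fam83g (0.98), Aqp3 (0.97) and Rmdn3 (0.97), and Nr3c1 most like As3mt (0.91), Smim11 (0.91) and Gpc2 (0.90). Sgk1 was most like Per1 (0.93), Mmp2 (0.80) and Rasgef1b (0.79), on few reads. These likenesses describe the 9 libraries and were not tested.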

How the data were processed

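Paired-end mRNA libraries of fetal liver erythroid cells were sequenced, and the authors deposited RPKM per RefSeq record, per the file headers; the submitters' processing notes name build mm9. Not given in the sources used here were the aligner, the counting and its use of strand. In the 4 CD71/CD24a files, which hold no 0, an exact 1 was read as 0. Symbols came from a RefSeq table of GRCm38 (22397 of 23041 records) and from GENCODE (114), and 530 records had none. The record with the highest mean stood for a gene. Libraries were scaled by the median ratio over 6888 genes. The steps between low RPKM values gave the depth, with 66.7% to 69.8% of low values whole within 0.1 reads, against 20% by chance. Lengths came from GRCm38. Exact (Poisson and Clopper-Pearson) 95% intervals cover counting error only, and 3 reads on a 1 kb transcript came to 0.0569 to 0.254 RPKM.

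Cultures were tested with limma 3.58.1 (R 4.3.3, trended empirical Bayes) on log2(scaled RPKM + 1), for 9535 genes with a mean of at least 1, with 2 residual and 4.31 prior degrees of freedom for Dex. Each interaction had 1 residual degree of freedom, with 11.6 prior ones for Dex by DMOG and 10.5 for Dex by sort. The pairing comes from the protocol, since arms were divided from the same cells, and deviations from group means correlated at 0.808, 0.770 and 0.701 within the pairs. Partners also share their sort and DMOG state, so these correlations cannot tell the sharing of cells from the sharing of those. Simulated data with known changes were used to check the fits. Fresh libraries were compared by a 2-fold rule at 1 or more scaled RPKM. Named list genes are those called for Dex, or called for another contrast, plus examples chosen after their values were seen. The members and lists were chosen with earlier results of these data known. Alternatives changed the pseudocount, filter, scaling, record choice, trend, block and libraries.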

Additional observations from a re-analysis of the deposited data

Results flagged for a closer look

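Among genes of the lists around the receptor, 7 and no member passed the interaction test between the sorts, the Dex difference in the CD71/CD24a sort (2 pairs) minus that in the CD71 sort (1 pair). Its spread comes from the 2 CD71/CD24a pairs of the same sorted cells, with 1 residual degree of freedom, and limma called 6.03% of all genes. For each gene that spread is mostly limma's 10.5 prior degrees of freedom, shared over all genes. A pass says that the single CD71 pair differed by more than this moderated spread. A difference between the sorts cannot be told apart from one between pools of sorted cells. The estimates were -0.997 for Ddit4, -0.97 for Nfkbia, -0.72 for Per1 and -0.60 for Rhob among induced genes (limma adjusted p from 0.00184 to 0.0476). Egr1, listed as repressed, had -1.05 (limma adjusted p = 0.000807), the receptor-complex immunophilin gene Ppid 0.53 and the importin gene Ipo7 0.48 (limma adjusted p 0.0289 and 0.0384). With no filter on low values all 7 lost their calls (limma adjusted p from 0.128 to 0.260), and over the 6 alternatives Ipo7 lost it in 5, Rhob in 4 and Ppid in 3. Nfkbia, the gene of an NF-kappaB inhibitor, was at 7.43 with Dex and 2.97 with water in the CD71 sort, at 2.61 with Dex and 2.89 with water in the CD71/CD24a sort, and at 3.98 with Dex and 2.92 without Dex when DMOG was present. Egr1 was at 17.3 with Dex and 5.83 with water in the CD71 sort, at 13.4 with Dex and 10.1 with water in the CD71/CD24a sort, and at 12.5 with Dex and 9.37 without Dex when DMOG was present.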

How the results depend on the processing

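The Dex calls of Fkbp5, Tsc22d3, Klf9, Zbtb16 and Tgm2 held with a pseudocount of 0.1, exact 1 kept as deposited, no scaling, summed records, no trend and each pair left out in turn. With no filter on low values the members called were 2 (Fkbp5 and Tgm2), and the genes called 21 in place of 193. With the block's term for the CD71 pair left out and the DMOG term kept, 0 members and 3 genes were called. The calls thus rest on allowing for the level difference between the CD71 pair and the CD71/CD24a pairs. That alternative did not test whether arms shared cells. Its member estimates were those of the blocked fit. Leaving out a pair gave 144 to 1172 genes called and 5 members each time; the 1172 came without the CD71 pair. For DMOG, 2 genes were called in the fit reported, 0 with a pseudocount of 0.1, 0 with no filter and 5 with summed records. Without the term for the CD71 pair 0 were called. Leaving out a library or the CD71 pair gave 2 to 121 genes and 0 to 1 members (17 without Dex with DMOG, 10 without DMOG alone). Small DMOG estimates of members changed sign, and without the term for the CD71 pair Tgm2 was at -0.35. With libraries left out in turn Fkbp5 ran from -0.11 to 0.026, Tsc22d3 from -0.20 to 0.046, Klf9 from -0.14 to 0.029 and Tgm2 from -0.011 to 0.14. The Dex by sort test called 34 genes with no filter and 336 with no trend, in place of 575. The cause was not tested. With no filter the 2-fold genes were 5021 between CFU-E and BFU-E (2118 with it) and 8583 between Ter119+ and CFU-E (5545). Without scaling, the share of 2-fold genes that were higher in Ter119+ was 12.6% against CFU-E and 13.1% against BFU-E, where scaling gave 42.9% and 37.0%.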
